A study of Arabidopsis thaliana with 12 samples.

Results

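The transcripts described here are those encoded by the mitochondrial genome of Arabidopsis thaliana, measured by RNA sequencing in whole roots. The deposited table gives RPKM (reads divided by gene length in kilobases and by the library's reads) for 33602 rows, of which 146 have identifiers beginning ATMG and belong to the mitochondrion. The 46 of these 146 rows at 0.5 RPKM or more in 3 or more of the 12 libraries were taken as members. Of the 100 rows below this limit, 69 stood at 0 in all 12 libraries. The members just inside the limit, with 0.5 RPKM in exactly 3 libraries, were ATMG00450, ATMG00710, ATMG00960 and ATMG01400, at means of 0.330, 0.336, 0.433 and 0.266 RPKM. Just outside it, with 2 libraries each, lay ATMG00285 and ATMG00830, at means of 0.155 and 0.272 RPKM.

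Seedlings 10 days old were suspended, 12 to a sample, for 1 h in liquid medium, after which the roots were cut off. The 4 groups of 3 libraries were the quintuple mutant bpc1,2,3,4,6 with 5 µM benzyladenine (bpc BA), the same mutant with vehicle (bpc vehicle), Col-0 wild type with 5 µM benzyladenine (WT BA) and wild type with vehicle (WT vehicle). Benzyladenine (BA) is a synthetic form of the plant hormone cytokinin, and the vehicle was NaOH (0.01% of a 5 N solution). The mutant is named for BASIC PENTACYSTEINE genes, whose products are transcription factors of the nucleus that bind GAGA motifs. The design asks which transcripts respond to cytokinin, which differ in the mutant, and whether the response differs in it. Whether the 3 libraries of a group are from separate growths is not stated in the labels, so the p-values refer to the spread among these samples alone, which could be technical. Whole roots mix cell types, so fewer cells of a type and less RNA per cell cannot be told apart.

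Plant mitochondria keep a small set of genes of their own, for subunits of the respiratory chain complexes and the ATP synthase, for cytochrome c maturation, and for ribosomal proteins and ribosomal RNAs, while most subunits of the same complexes are encoded in the nucleus and imported. Transcription in the mitochondrion is by phage-type polymerases, and the RNAs are spliced, edited and trimmed there. A poly(A) tail in plant mitochondria marks an RNA for decay rather than for translation. These libraries were made with a kit that captures mRNA on beads, so the values describe the part of mitochondrial RNA that such a capture retained. In Col-0 a large stretch of mitochondrial DNA has also been copied into chromosome 2, so that many mitochondrial genes have near-identical nuclear copies.

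Divisors of 9427912 to 13951019 reads per library were implied by the RPKM steps. For WT BA replicate 1 the divisor equalled that of WT vehicle replicate 2, and its length-weighted RPKM sum was 86.5% of the median (other libraries, 99.8% to 100.2%), so all its values are low by that ratio. The replicate 3 libraries of both vehicle groups stood apart from the other 10: the 4 nuclear ribosomal RNA rows summed to 259 RPKM in bpc vehicle 3 and 337 in WT vehicle 3, against 734 to 1437 elsewhere, and the 133 plastid rows summed to 5566 and 5096 RPKM, against 2373 to 3889. Over 6 libraries each, BPC1, BPC2 and BPC6 had at most 2.20, 1.93 and 2.81 RPKM in bpc and at least 10.6, 15.1 and 24.1 in WT. BPC4 ranged over 14.5 to 17.8 RPKM in bpc and 20.04 to 26.2 in WT, and BPC3 over 2.57 to 4.14 in bpc and 1.21 to 2.51 in WT, the direction opposite to its label, and the sources used here do not give the mutated sites. All 10 root markers passed the limit on low values, and the 15 markers of green tissue, of which 12 passed, summed to 160 to 252 RPKM per library.

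The table gives identifiers only, and the reference at hand (TAIR10.1) carries another sequence for the mitochondrion than the authors' build. A row was therefore named only where the length implied by its RPKM steps equalled that of a single RefSeq mitochondrial gene of its family, or where a reference note on its nuclear copy names it. This gave names to 19 members, 17 by length and 2 by note, and the other 27 are given by identifier. Of these 27, 5 stand by identifier in the lists of gene functions used below (ATMG00020, ATMG00410, ATMG00520, ATMG01120 and ATMG01170), and their place there was not taken from the reference. A note on a nuclear copy of ATMG00410 reads ATPase subunit 6-1, and that for ATMG01090 reads ATP synthase 9 mitochondrial. Neither was used as a name. For nad1, nad2 and nad5, whose mRNAs are pieced together from separate transcripts by trans-splicing, a row holds only some of the coding blocks. No sequence or coordinate is printed, because the authors' mitochondrial sequence was not used here, and whether rows overlap on that sequence was not read.

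The genes of many named rows have copies elsewhere in the reference. For each of 31 named rows, the coding blocks or RNA of its RefSeq gene were cut into all 50-base words. Each word was sought in the 5 nuclear chromosomes and elsewhere in the mitochondrion. The row itself was not cut, and a row named by note can differ in length. The atp9 row has 504 nt against 176 words, and the cox3 row 1447 nt against 749 words. The 7 rows with 100% of words found once were atp4, rrn5, nad9, nad4L, cox1, nad5 blocks 4 to 5 and ccmB. Their means were 1.25 to 32.9 RPKM. Of the 14 rows with no single-copy word, whose words all lie on a nuclear chromosome too, 3 were members (cox3, atp9 and nad2 blocks 3 to 5), and the highest mean was 5.50 RPKM, that of atp9. The 10 rows between included 8 members, among them rrn18 with 99.6%, rps3 with 92.6%, cox2 with 74.2% and rpl16 with 65.4% of words found once. The levels of these sets are not compared, because a length can be read only from a row with reads: all 7 rows at 100% were named by length, whereas 12 of the 14 at 0% were named by a note on a nuclear copy, 8 of them listed at 0 in every library. The sources used here do not say how reads that fit several places were counted, so a low RPKM in a row with copies is not a measure of that gene's transcript.

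**Figure D1:**
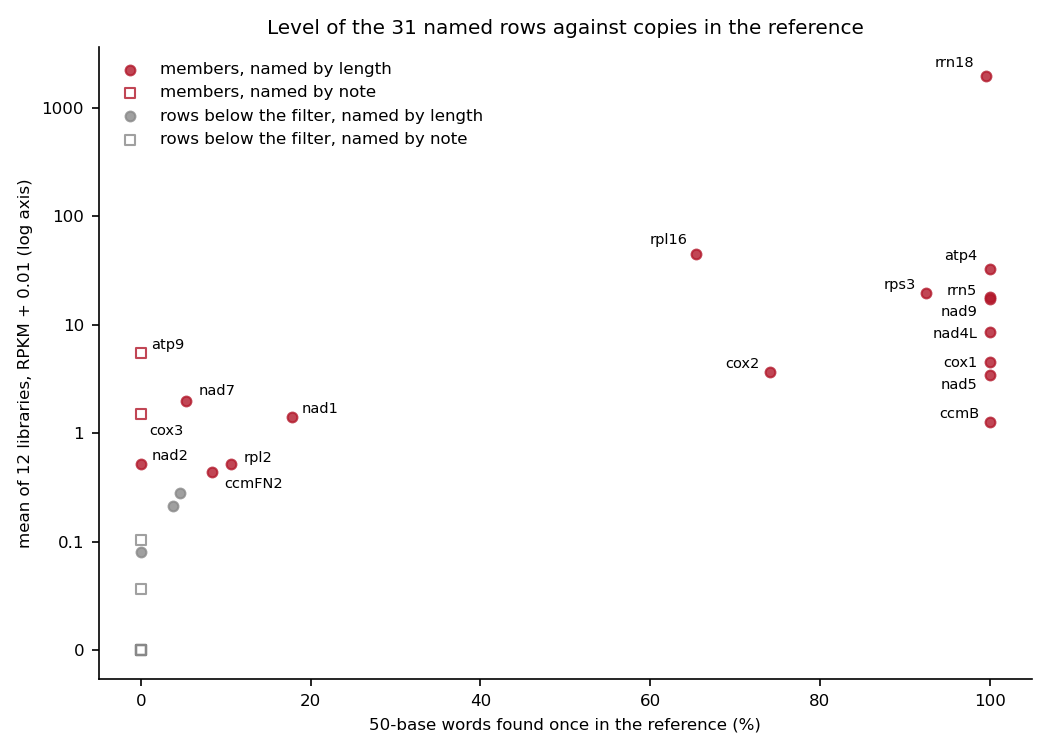
Mean RPKM of 12 libraries plus 0.01 (log axis) of the 31 named rows against the percent of 50-base words of their RefSeq gene or blocks that occur once in the reference. Filled circles were named by length, which needs reads, and open squares by a note on a nuclear copy; the 7 rows at 100% are all named by length and 12 of the 14 at 0% by note, so the sets' levels are not compared. Members are red and other rows grey. The labels nad1 and nad5 stand for coding blocks 4 to 5 and nad2 for blocks 3 to 5.

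Nuclear rows that the reference pairs with ATMG rows had reads too. The reference notes pair ATMG rows with nuclear rows in 55 cases, of which the nuclear row had the higher mean in 27, the ATMG row in 17, and both were listed at 0 in 11. In 28 of the 55 the ATMG row stood at 0 in all 12 libraries. In 17 of the 28 the nuclear row was above 0, and in 10 it reached 0.5 RPKM in at least 3 libraries. For cob, the cytochrome b subunit of complex III, the ATMG row was listed at 0 in every library and AT2G07727 averaged 1.35 RPKM. For rps7, a protein of the small ribosomal subunit, the ATMG row was listed at 0 and AT2G07696 averaged 1.08 RPKM. The row of atp1, the alpha subunit of the ATP synthase, averaged 0.0266 RPKM and its nuclear partner AT2G07698 averaged 1.51 RPKM. The other way round, atp9 averaged 5.50 RPKM and its partner AT2G07671 1.33, and cox3 averaged 1.48 and AT2G07687 0.686 RPKM. From which genome the reads of either row came was not tested. Complex III therefore has no member, and the other complexes are described by the rows that passed the limit.

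Levels spanned more than 3 orders of magnitude. The 3 most abundant members were rrn18, ATMG00020 and ATMG00030, with means of 1965, 1784 and 1182 RPKM, followed by 8 members of at least 10 RPKM, 8 at 2 to 10, 20 at 0.5 to 2 and 7 under 0.5 RPKM. Of 1203626 reads assigned to members in all libraries together, 51.2% lay in ATMG00020, 43.0% in rrn18, 4.23% in ATMG00030 and 1.59% in the other 43 members. Fewer than 100 reads over the 12 libraries stood behind 20 of the 46 members, and 9 were at 0 in at least 1 library. Members took 1.02% ± 0.168 of all reads in bpc BA, 0.971% ± 0.231 in bpc vehicle, 0.860% ± 0.143 in WT BA and 0.745% ± 0.0620 in WT vehicle (SD, n = 3 each).

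rrn18, the RNA of the small mitochondrial ribosomal subunit, had 2833, 2446 and 1399.7 RPKM in bpc BA, 1938, 3006 and 1430.0 in bpc vehicle, 1639, 2749 and 1514 in WT BA, and 1796, 1299 and 1532 in WT vehicle. The groups overlapped, and the highest libraries of bpc BA, bpc vehicle and WT BA all lay above the 3 WT vehicle libraries. ATMG00020 had 1987, 2330.2 and 1948 RPKM in bpc BA, 2117, 2174 and 1537 in bpc vehicle, 1277, 1713 and 1658 in WT BA, and 1648, 1709 and 1304 in WT vehicle. With BA the bpc libraries all lay above the WT libraries, with vehicle the groups overlapped, and replicate 3 was the lowest library of each vehicle group. The small RNA rrn5, the 5S RNA of the large subunit, had 32.7, 32.5 and 17.1 RPKM in bpc BA, 14.3, 19.8 and 14.7 in bpc vehicle, 13.1, 15.0 and 17.2 in WT BA, and 14.6, 18.2 and 5.05 in WT vehicle, resting on 6 to 45 reads per library. Replicates 1 and 2 of bpc BA were the highest of the 12 libraries, and replicate 3 lay inside the range of WT BA.

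ATMG00030, the most abundant row outside the ribosomal RNA list, had 1103, 1349 and 1343 RPKM in bpc BA, 1281, 1350.2 and 1502 in bpc vehicle, 733, 1116 and 1198 in WT BA, and 884, 1100.2 and 1229 in WT vehicle. With vehicle the bpc libraries were all above the WT libraries, with BA the groups overlapped, and replicate 3 was the highest library of each vehicle group. The sum of the other 43 members, without rrn18, ATMG00020 and ATMG00030, was 271.3 ± 11.5 RPKM in bpc BA, 275.3 ± 32.4 in bpc vehicle, 215.7 ± 64.9 in WT BA and 202.2 ± 30.1 in WT vehicle. With vehicle this sum was 252 to 312 RPKM in bpc libraries and 171 to 231 in WT libraries, which do not overlap. With BA it was 258 to 280 RPKM in bpc libraries and 151 to 281 in WT libraries, and WT BA replicate 2 lay above all 3 bpc libraries. The same sum over all 46 members was 5851 ± 787 RPKM in bpc BA, 5720.4 ± 1006 in bpc vehicle, 4748 ± 1039 in WT BA and 4369.6 ± 113 in WT vehicle, and no test was run on sums because the members were chosen with results known.

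**Figure D2:**
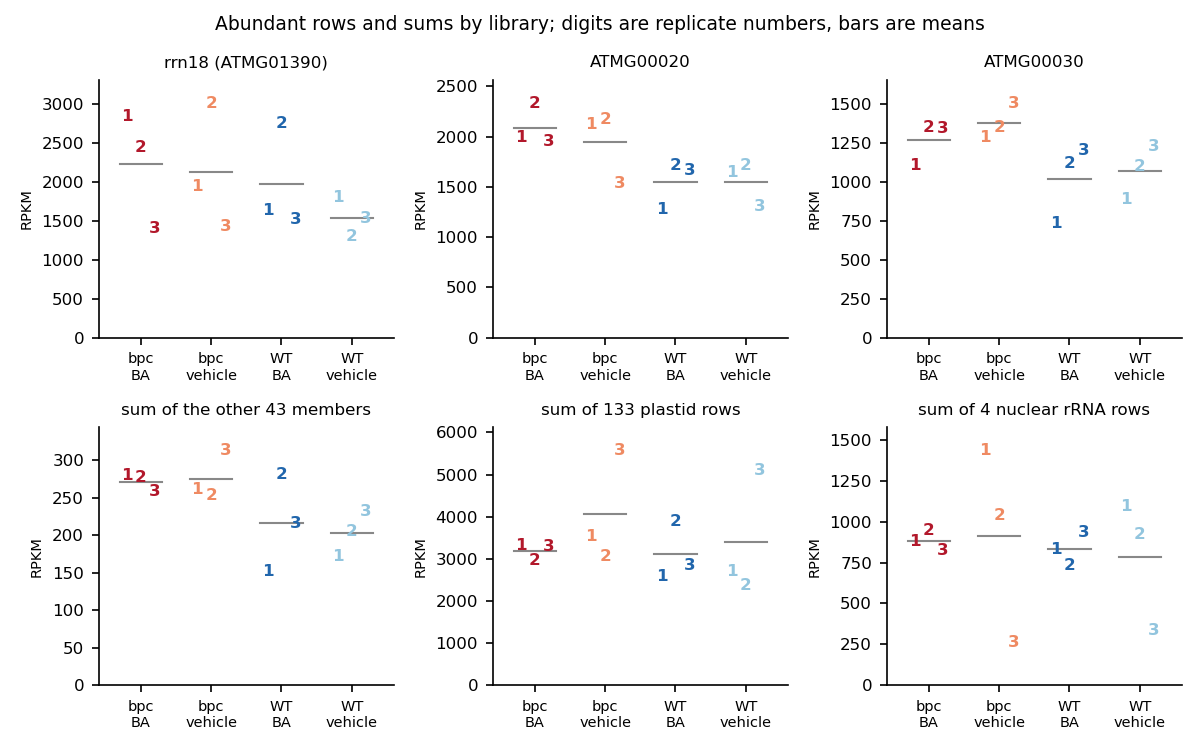
RPKM per library (linear axes) of rrn18, ATMG00020 and ATMG00030, and summed RPKM of the other 43 members, the 133 plastid rows and the 4 nuclear ribosomal RNA rows, in bpc BA, bpc vehicle, WT BA and WT vehicle. Digits are replicate numbers and bars are group means of 3 libraries. The other 43 members summed to 252 to 312 RPKM in bpc vehicle and 171 to 231 in WT vehicle, and the vehicle libraries numbered 3 stand apart in the plastid and nuclear ribosomal RNA panels.

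Among transcripts for the translation machinery, rpl16, a protein of the large ribosomal subunit, was the most abundant named mRNA and had 42.4, 41.3 and 37.5 RPKM in bpc BA, 35.0, 44.7 and 82.6 in bpc vehicle, 23.0, 54.0 and 38.1 in WT BA, and 22.8, 45.3 and 65.7 in WT vehicle. The 2 highest libraries were the vehicle libraries numbered 3, and the bpc and WT groups overlapped. rps3, a protein of the small ribosomal subunit, had 19.7, 21.6 and 21.3 RPKM in bpc BA, 18.1, 19.9 and 24.0 in bpc vehicle, 11.2, 24.1 and 18.7 in WT BA, and 12.4, 19.1 and 22.6 in WT vehicle. Its bpc libraries kept within 18.1 to 24.0 RPKM, inside the WT range of 11.2 to 24.1. rpl2, which has 10.6% of its words single-copy, had 0.979, 0.871 and 0.505 RPKM in bpc BA, 0.357, 0.712 and 0.485 in bpc vehicle, 0.409, 0.294 and 0.420 in WT BA, and 0.478, 0.082 and 0.473 in WT vehicle, with 71 reads in all 12 libraries. With BA the bpc libraries of rpl2 were all above the WT libraries, and only bpc libraries of rpl2 reached 0.5 RPKM.

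Of the complex I list (NADH dehydrogenase, the entry point of electrons from NADH), 8 of 14 rows were members. The subunit nad9 had 15.9, 24.6 and 16.7 RPKM in bpc BA, 15.0, 19.4 and 17.1 in bpc vehicle, 12.7, 19.0 and 17.6 in WT BA, and 14.0, 17.7 and 16.1 in WT vehicle. The groups overlapped, and its bpc minus WT difference was 0.20 ± 0.18 with BA and 0.10 ± 0.18 with vehicle (log2 of RPKM + 0.5, ± SE, a scale that understates the change of low rows). The membrane subunit nad4L had 6.22, 10.3 and 7.70 RPKM in bpc BA, 15.5, 9.57 and 12.1 in bpc vehicle, 5.38, 8.65 and 4.66 in WT BA, and 9.94, 4.25 and 8.86 in WT vehicle. Its difference with vehicle was 0.71 ± 0.30 (adjusted p = 0.319 by limma), and WT vehicle replicate 1 lay above bpc vehicle replicate 2. The row of nad5 blocks 4 to 5 had 3.79, 5.06 and 4.31 RPKM in bpc BA, 5.19, 1.72 and 4.88 in bpc vehicle, 2.53, 2.99 and 1.95 in WT BA, and 2.91, 2.85 and 3.12 in WT vehicle. With BA all bpc libraries of this row were above the WT libraries, by log2 0.71 ± 0.29 (adjusted p = 0.250 by limma), and with vehicle replicate 2 of bpc was the lowest library of all. The row of nad5 block 3 is 22 nt long and had 31.2, 12.5 and 4.82 RPKM in bpc BA, 21.3, 0 and 27.8 in bpc vehicle, 11.7, 24.5 and 4.01 in WT BA, and 3.26, 7.80 and 4.52 in WT vehicle. This row rests on 38 reads, 0 to 8 per library, and had the largest spread within groups of all members (residual SD of 1.88 on the log2 scale).

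The rest of the complex I rows were low. nad7, a subunit of the soluble arm, had 2.96, 1.70 and 2.33 RPKM in bpc BA, 2.06, 2.37 and 2.23 in bpc vehicle, 1.30, 2.60 and 1.71 in WT BA, and 1.33, 1.09 and 1.85 in WT vehicle, and with vehicle the bpc libraries were all above the WT libraries (log2 0.52 ± 0.23, adjusted p = 0.344 by limma). The row of nad1 blocks 4 to 5 ranged over 0.270 to 2.67 RPKM on 59 reads and that of nad2 blocks 3 to 5 over 0.108 to 0.913 RPKM on 64 reads. All 8 complex I members had a positive bpc minus WT difference with BA and with vehicle, with medians of 0.24 and 0.30. By limma 0 of the 8 passed, against 2.32% of all genes tested with BA and 1.99% with vehicle. At an unadjusted p under 0.05 there were 1 with BA and 2 with vehicle, against 15.2% and 13.4% of all genes.

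The list of complexes III and IV had 3 members, the cytochrome c oxidase subunits cox1, cox2 and cox3. cox1, which holds the catalytic centre of the oxidase, had 4.81, 6.00 and 6.03 RPKM in bpc BA, 5.03, 6.61 and 3.53 in bpc vehicle, 3.52, 4.04 and 4.12 in WT BA, and 3.67, 3.20 and 3.26 in WT vehicle. With BA all bpc libraries of cox1 were above the WT libraries, and with vehicle bpc replicate 3 lay within the WT range. Its bpc minus WT differences were 0.47 ± 0.18 with BA (adjusted p = 0.229 by limma) and 0.48 ± 0.18 with vehicle (adjusted p = 0.239 by limma). cox2, which takes electrons from cytochrome c, had 4.60, 4.90 and 4.20 RPKM in bpc BA, 3.71, 4.90 and 4.81 in bpc vehicle, 1.75, 3.74 and 2.59 in WT BA, and 4.21, 1.97 and 2.16 in WT vehicle. Here too the bpc libraries were above the WT libraries with BA, by 0.71 ± 0.26 (adjusted p = 0.198 by limma), while with vehicle WT replicate 1 reached the bpc range and the difference was 0.65 ± 0.26 (adjusted p = 0.265 by limma). All words of the RefSeq coding sequence of cox3 have a nuclear copy, and the rest of its row of 1447 nt was not searched. cox3 had 1.90, 1.33 and 1.47 RPKM in bpc BA, 2.33, 1.49 and 1.69 in bpc vehicle, 1.36, 1.17 and 0.915 in WT BA, and 1.04, 1.48 and 1.65 in WT vehicle, with differences of 0.32 ± 0.20 and 0.30 ± 0.20. The sum of the 3 rows was 11.3 to 12.2 RPKM in bpc BA and 6.64 to 8.95 in WT BA, and 10.0 to 13.0 in bpc vehicle and 6.65 to 8.92 in WT vehicle. On this summed level the genotypes did not overlap with either treatment. With BA the genotypes did overlap in the sums of complex I, ATP synthase, cytochrome c maturation, ribosomal proteins and ribosomal RNAs. With vehicle the sums of complex I, of ATP synthase and of the 22 members in no list did not overlap. The complex I sum was 38.8 to 67.5 RPKM in bpc vehicle and 35.1 to 37.6 in WT vehicle. Of the 67.5 RPKM, in bpc vehicle replicate 3, 27.8 lay in the row of nad5 block 3, which rests on 38 reads in 12 libraries.

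Of the ATP synthase list, 4 of 6 rows were members. atp4, a subunit of the membrane-embedded part, had 33.4, 31.1 and 46.9 RPKM in bpc BA, 38.8, 35.2 and 26.9 in bpc vehicle, 20.6, 39.7 and 41.9 in WT BA, and 26.0, 27.3 and 27.0 in WT vehicle. With vehicle bpc replicate 3 lay in the WT range and the difference was 0.31 ± 0.24, and with BA it was 0.17 ± 0.24. atp9, the subunit that forms the rotating ring, had 4.76, 5.99 and 6.94 RPKM in bpc BA, 7.25, 6.49 and 11.9 in bpc vehicle, 1.87, 5.35 and 3.85 in WT BA, and 3.13, 2.89 and 5.52 in WT vehicle. With vehicle all bpc libraries of atp9 were above the WT libraries, by log2 1.06 ± 0.32 (adjusted p = 0.136 by limma). This was the largest difference of any member in that comparison, and with BA the groups overlapped (0.69 ± 0.32, adjusted p = 0.338 by limma). With the replicate number as a block and the vehicle groups alone, a setting added after results were seen, the adjusted p with vehicle was 0.00951 by limma. None of the words of the RefSeq coding sequence of atp9 is single-copy, and the rest of its row of 504 nt was not searched. ATMG01170, also in this list but without a name from the reference, had 1.24, 1.58 and 1.15 RPKM in bpc BA, 1.69, 1.49 and 1.18 in bpc vehicle, 0.620, 1.39 and 0.956 in WT BA, and 0.880, 0.682 and 1.58 in WT vehicle.

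Cytochrome c maturation, by which heme is attached to cytochromes, had 2 members of 5 listed rows. ccmB, part of a transporter complex of this pathway, had 0.828, 1.03 and 2.05 RPKM in bpc BA, 2.41, 1.20 and 1.48 in bpc vehicle, 0.691, 1.12 and 1.28 in WT BA, and 0.346, 0.829 and 1.76 in WT vehicle, and ccmFN2, part of the heme-attachment machinery, had 0.280, 0.598 and 0.173 RPKM in bpc BA, 0.459, 0.458 and 0.166 in bpc vehicle, 0.140, 1.01 and 0.865 in WT BA, and 0.468, 0.421 and 0.162 in WT vehicle, on 37 reads in all. Neither separated the groups. ATMG00520, the only member of the list of maturase and transporter genes, had 0.976, 1.04 and 0.788 RPKM in bpc BA, 0.650, 0.834 and 0.504 in bpc vehicle, 0.553, 0.306 and 0.481 in WT BA, and 0.320, 0.680 and 0.394 in WT vehicle. With BA its bpc libraries were all above the WT libraries, by 0.61 ± 0.21 (adjusted p = 0.177 by limma).

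**Figure D3:**
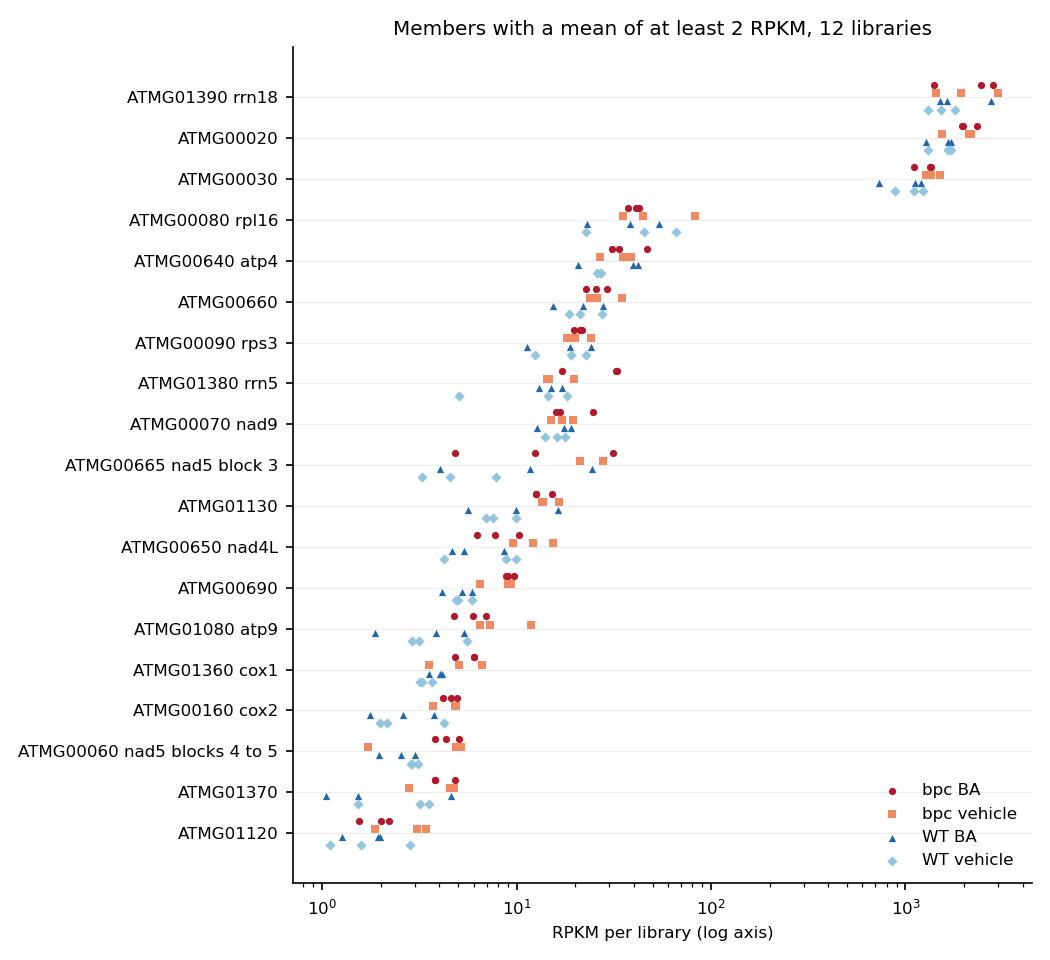
RPKM per library (log axis) of the 19 members with a mean of at least 2 RPKM, ordered by mean, with bpc BA, bpc vehicle, WT BA and WT vehicle on separate lines within each row and 1 point per library; a library at 0 (bpc vehicle replicate 2 of nad5 block 3) is not drawn. ATMG00690 has both bpc groups to the right of both WT groups, while most rows overlap.

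The other 22 members belong to no list and were given no name. Besides ATMG00030 the most abundant were ATMG00660, ATMG01130 and ATMG00690. ATMG00660 had 22.9, 25.6 and 29.0 RPKM in bpc BA, 23.7, 25.8 and 34.8 in bpc vehicle, 15.4, 27.9 and 22.0 in WT BA, and 18.6, 21.2 and 27.6 in WT vehicle, with all groups overlapping. ATMG01130 had 12.5, 12.5 and 15.2 RPKM in bpc BA, 13.4, 16.6 and 13.6 in bpc vehicle, 5.61, 16.3 and 9.90 in WT BA, and 7.59, 6.95 and 9.91 in WT vehicle. With vehicle the bpc libraries of ATMG01130 were all above the WT libraries (0.81 ± 0.27, adjusted p = 0.184 by limma). The adjusted p was 0.0436 by limma with the replicate block and the vehicle groups alone, the setting added after results were seen. With BA WT replicate 2 was above all 3 bpc libraries of ATMG01130. Most of the rest were near the limit of detection, and the largest spreads within groups, after nad5 block 3, were those of ATMG00380, ATMG01220, nad1 blocks 4 to 5 and ATMG00130, with residual SDs of 1.19, 0.70, 0.69 and 0.62. ATMG00380 had 1.38, 1.47 and 0 RPKM in bpc BA, 0, 1.51 and 0 in bpc vehicle, 0, 1.24 and 2.85 in WT BA, and 1.16, 1.38 and 0 in WT vehicle, or 8 reads in 12 libraries. ATMG01220 had 1.75, 0.267 and 1.55 RPKM in bpc BA, 0, 0.273 and 0.893 in bpc vehicle, 0.753, 0.676 and 0 in WT BA, and 0.210, 0.251 and 0.581 in WT vehicle. ATMG00130 had 1.17, 0 and 0.290 RPKM in bpc BA, 0, 0.511 and 0 in bpc vehicle, 0.938, 0.632 and 0.241 in WT BA, and 0.196, 0.703 and 0.272 in WT vehicle. For these rows 1 read decides whether a library is at 0.

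Between genotypes, most mitochondrial transcripts had a higher mean in bpc than in WT. In the fit of all 12 libraries as deposited, without a replicate block, only ATMG00690 passed the test, with BA. With BA, 1 of 46 members passed (limma, adjusted p under 0.05), higher in bpc, against 1.29% of all 20776 genes tested called higher and 2.32% called in either direction, and 8 members had an unadjusted p under 0.05 against 15.2% of all genes. With vehicle, 0 of 46 passed by limma, against 1.99% of all genes, and 9 had an unadjusted p under 0.05, against 13.4% of all genes. With the replicate number as a block and the vehicle groups alone, 2 members passed, atp9 and ATMG01130, against 4.05% of all genes. This setting was added after results were seen. Between the vehicle groups the residuals paired the libraries numbered 3 (correlation 0.630), but did not pair those numbered 1 and 2 by number. With the block over all 12 libraries 0 passed. The difference was positive for 40 of 46 members with BA, against 67.6% of all genes, and for 41 with vehicle, against 57.5%. The median member difference was 0.32 with BA and 0.33 with vehicle, and the medians over all genes were 0.085 and 0.037. These comparisons share no library, and 38 members (82.6%) were positive in both, against 48.9% of all genes. Within each comparison all members come from the same libraries, 3 per group. The members are thus not independent of each other, and their counts do not measure replication. All 19 members with a mean of at least 2 RPKM were positive in both, also under median-of-ratios, quantile and nuclear-sum scaling and with WT BA replicate 1 rescaled.

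ATMG00690 was the called member. It had 9.01, 9.74 and 8.80 RPKM in bpc BA, 9.33, 9.05 and 6.48 in bpc vehicle, 4.15, 5.87 and 5.25 in WT BA, and 4.86, 4.98 and 5.91 in WT vehicle. The bpc libraries were above the WT libraries with BA and with vehicle, the only member of which this held (2.17% of members, against 5.24% of all genes). Its difference was 0.80 ± 0.16 with BA (adjusted p = 0.0195 by limma) and 0.60 ± 0.16 with vehicle (adjusted p = 0.0788 by limma), and its residual SD of 0.20 was the lowest of the 46. With BA the adjusted p was 0.0550 to 0.0905 when WT BA replicate 1 or 3 or any one bpc BA library was left out, the difference keeping within 0.68 to 0.83. With vehicle the adjusted p was 0.0266 without bpc vehicle replicate 3 and 0.0616 to 0.243 without any other single library, and 0.260 with the vehicle groups alone. A second member passed with BA when 1 library was left out in 2 cases: nad5 blocks 4 to 5 without bpc vehicle replicate 2 (adjusted p = 0.0409 by limma) and ATMG01370 without WT BA replicate 2 (adjusted p = 0.0487 by limma).

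Libraries that did not overlap were as follows. With BA, 11 of 46 members (23.9%) had all 3 bpc libraries above all 3 WT libraries, against 19.1% of all genes, and 0 had them all below, against 6.48%. The 11 were ATMG00020, ATMG00690, cox1, cox2, nad5 blocks 4 to 5, rpl2, ATMG00520, ATMG01200, ATMG01020, ATMG01060 and ATMG01400. Of these, rpl2, ATMG01060 and ATMG01400 reached 0.5 RPKM only in bpc libraries (highest WT libraries, 0.478, 0.265 and 0.278 RPKM). Their membership thus rests on the genotype in which they were higher. They are also among the members counted above as positive with BA and with vehicle. With vehicle 8 members (17.4%) were all higher, against 9.89% of all genes, and 0 were all lower, against 6.77%. These 8 were ATMG00690, atp9, nad7, ATMG00030, ATMG00670, ATMG01130, ATMG01090 and ATMG00400.

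The values of WT BA replicate 1, low as deposited, bear on the comparison with BA. Without that library 15 of the 19 members of at least 2 RPKM were positive and the median over all 46 was 0.13, without WT BA replicate 2 the median was 0.49, and with replicate 1 rescaled to its own total the median was 0.27, with 40 of 46 positive against 54.5% of all genes. Without both vehicle libraries numbered 3, which stand apart in nuclear ribosomal and plastid RNA, 38 of 46 members were positive with vehicle, 18 of those 19 among them, with a median of 0.41. ATMG00690 then passed the test with vehicle (adjusted p = 0.0166 by limma), and ATMG00020 passed with BA beside it (adjusted p = 0.0461 by limma).

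**Figure D4:**
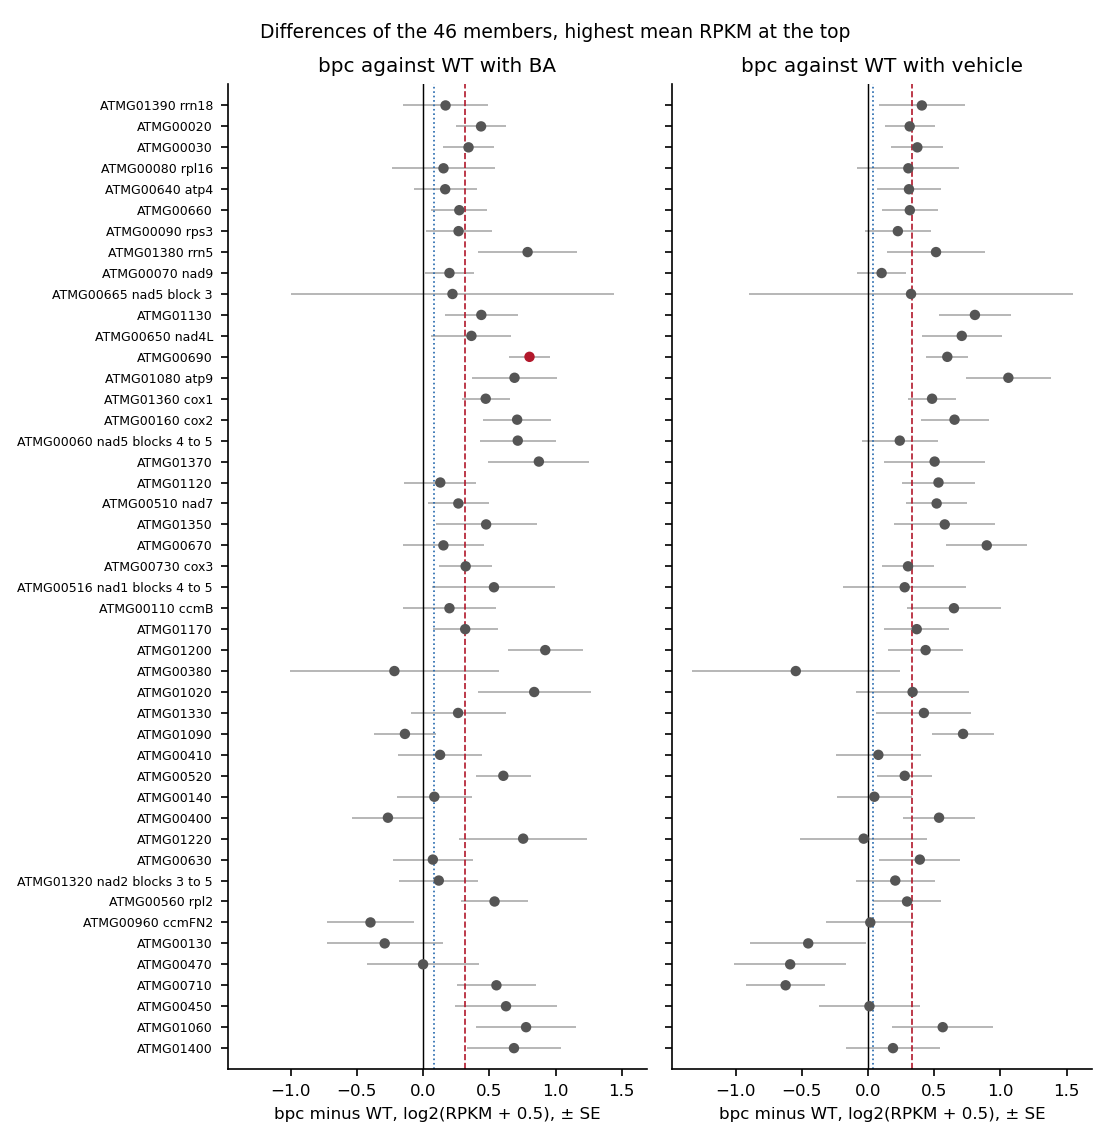
Difference bpc minus WT on the log2(RPKM + 0.5) scale (point, with its SE as bar) for the 46 members, with BA on the left and with vehicle on the right, the highest mean RPKM at the top. The red point is ATMG00690, the only member past the test in the fit of all 12 libraries as deposited, without a replicate block. The red dashed line is the median of members (0.32 and 0.33) and the blue dotted line that of all genes tested (0.085 and 0.037).

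In the authors' deposited table of bpc against WT with vehicle, an edgeR fit that lists 26 of the members, all 26 fold changes were positive, with a median log2 of 0.45 against 0.016 over its 19706 genes. There 6 of 26 (23.1%) had an FDR under 0.05, all higher, against 6.38% of all genes higher. The authors' deposited table gives atp9 a log2 fold change of 1.04 (FDR 0.000258), ATMG00670 1.23 (FDR 0.00485), ATMG01130 0.80 (FDR 0.0163), ATMG00690 0.66 (FDR 0.00412), cox1 0.60 (FDR 0.006) and ATMG00020 0.33 (FDR 0.00135). Of these, ATMG00670 had 2.69, 1.55 and 1.67 RPKM in bpc BA, 3.73, 2.26 and 1.48 in bpc vehicle, 1.66, 1.77 and 1.60 in WT BA, and 1.47, 1.35 and 0.480 in WT vehicle, a limma difference of 0.90 ± 0.31 (adjusted p = 0.186). ATMG00690 did not pass with the replicate block and the vehicle groups alone (adjusted p = 0.108 by limma).

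Plastid RNA, the other organellar fraction, gave 0 calls between genotypes by limma, against 2.32% of all genes with BA and 1.99% with vehicle. Of the 94 plastid rows tested, 2 had an unadjusted p under 0.05 with BA and 6 with vehicle, against 15.2% and 13.4% of all genes. Of these rows 77 were positive with vehicle, against 57.5% of all genes, with a median of 0.30. With BA 53 were positive, against 67.6% of all genes, with a median of 0.046. The vehicle libraries numbered 3 hold the most plastid RNA in both genotypes, and the part of this in the mitochondrial values was not tested. The markers of green tissue summed to 168 ± 10.8 RPKM in bpc BA, 178 ± 19.7 in bpc vehicle, 204 ± 30.3 in WT BA and 227 ± 29.4 in WT vehicle, and the root markers to 514 ± 28.0, 541 ± 62.2, 613 ± 63.2 and 689 ± 107 RPKM in the same order. Of the 10 root markers, the iron transporter IRT1 was lower in bpc, by log2 -1.39 ± 0.30 with BA (adjusted p = 0.0291 by limma) and -1.46 ± 0.30 with vehicle (adjusted p = 0.0237 by limma). The part of tissue make-up in the mitochondrial values was not tested.

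Chromosome 2 rows with identifiers around the paired copies were also mostly positive. They were taken by identifier number alone, and whether each lies in the insertion was not read. Of 141 rows from AT2G07667 to AT2G07835, 40 were tested. For bpc against WT, 33 of the 40 were positive with BA, against 67.6% of all genes, and 33 with vehicle, against 57.5%. The medians over the 40 were 0.38 and 0.34. The highest of them, AT2G07783, had 35.3, 35.1 and 39.2 RPKM in bpc BA, 35.2, 35.2 and 59.0 in bpc vehicle, 17.7, 35.1 and 22.2 in WT BA, and 17.4, 19.4 and 43.1 in WT vehicle. Only AT2G07747 passed between genotypes, with BA, against 2.32% of all genes. It had 6.54, 8.34 and 7.04 RPKM in bpc BA, 4.04, 4.81 and 3.71 in bpc vehicle, 3.70, 3.96 and 3.81 in WT BA, and 3.69, 3.84 and 3.46 in WT vehicle, a difference of 0.85 ± 0.13 (adjusted p = 0.00409 by limma). Reads of a mitochondrial gene and of its copy cannot be told apart where the sequences match, so rows that hold such copies are not independent of the members. The reference notes pair neither AT2G07783 nor AT2G07747 with an ATMG row.

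After 1 h of BA no mitochondrial transcript passed the test in either genotype. Of 46 members 0 passed in bpc by limma, against 8.59% of all genes, and 0 passed in WT, against 8.68%. At an unadjusted p under 0.05 there were 3 members in bpc and 0 in WT, against 18.3% and 18.5% of all genes. Differences of BA minus vehicle were positive for 29 members in bpc, against 50.4% of all genes, and for 23 in WT, against 40.7%. The WT count rests on WT BA replicate 1, low as deposited: it was 30, against 53.6% of all genes, with that library rescaled, and 31, against 53.0%, without it. Medians over members were 0.095 in bpc and 0.0077 in WT, beside 0.0017 and -0.047 over all genes, and those in WT were 0.056 and 0.017 with that library rescaled and 0.15 and 0.014 without it. In bpc 0 members had all BA libraries above the vehicle libraries, against 12.2% of all genes, and 2, ATMG00630 and ATMG01090, had them all below, against 14.0%. In WT 1 member, ATMG00670, had all BA libraries above, against 7.9%, and 0 had them all below, against 13.0%. Without bpc BA replicate 1, ATMG00710, with 16 reads in 12 libraries, passed in bpc, higher with BA (1.17 ± 0.30, adjusted p = 0.0391 by limma). The most abundant rows gave 0.073 ± 0.32 in bpc and 0.31 ± 0.32 in WT for rrn18, and 0.12 ± 0.19 and -0.0058 ± 0.19 for ATMG00020. Among the root markers, SCR and MYB36, regulators of the ground tissue and endodermis, were lower with BA in both genotypes, and RHD6, a regulator of root hairs, was higher with BA in bpc.

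In the authors' deposited table of BA against vehicle in bpc, 1 of 26 members had an FDR under 0.05, against 23.8% of all genes. This was rrn5, with a log2 fold change of 0.77 (FDR 0.0215) in the authors' deposited table and 0.69 ± 0.37 by limma (adjusted p = 0.376). In the authors' deposited table for WT it was 0 of 26, against 18.8% of all genes.

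The response to BA did not differ detectably between genotypes for any member. The interaction (bpc response minus WT response) passed for 0 of 46 members by limma and 2 had an unadjusted p under 0.05, against 1.63% of all genes. Over all genes 0.00481% passed. It was positive for 24 members, against 62.5% of all genes. The median member interaction was 0.028 and that of all genes 0.050. Both medians changed sign with WT BA replicate 1 rescaled (-0.029 and -0.015, with 22 members positive), without it (-0.099 and -0.016), under nuclear-sum scaling (-0.027 and -0.012) and under median-of-ratios scaling (-0.015 and -0.00043). The errors were wide, as for rpl16, at -0.15 ± 0.55, and for cox1, at -0.011 ± 0.26.

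Nuclear genes for the same complexes were set beside these rows from lists of textbook members. The 39 nuclear respiratory chain subunits all passed the limit on low values, and 0 were called by limma in any of the 5 comparisons, in which at most 1 had an unadjusted p under 0.05. Their median bpc minus WT difference was 0.088 with BA and -0.034 with vehicle, beside 0.32 and 0.33 for the mitochondrial members. With BA 36 of the 39 were positive and with vehicle 17, beside 40 and 41 of 46 members and 67.6% and 57.5% of all genes. Of 19 nuclear genes for mitochondrial transcription and RNA processing 0 were called by limma and 0 had an unadjusted p under 0.05 in any comparison, with medians of 0.032 with BA and -0.017 with vehicle. Of the alternative oxidases and dehydrogenases 7 of 12 were tested, and of the mitochondrial stress genes 8 of 9. The only call in these lists was NDB2, an NAD(P)H dehydrogenase of the inner membrane that is in both lists, with 83.1 ± 7.67 RPKM in bpc BA and 54.7 ± 8.97 in bpc vehicle (SD, n = 3 each; log2 0.61 ± 0.15, adjusted p = 0.0247 by limma).

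As a description of likeness, the 5 genes outside the mitochondrion whose log2 values followed those of rpl16 most closely over the 12 libraries were AT1G03970 (GBF4), AT3G19370, AT3G47610, AT2G35490 and AT3G56170 (CAN), with Pearson correlations of 0.949, 0.939, 0.931, 0.930 and 0.930. The 12 points share libraries and depth with all other rows. rpl16 was highest in the vehicle libraries numbered 3 (82.6 RPKM in bpc and 65.7 in WT), and their part in these correlations was not tested.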

How the data were processed

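RNA sequencing of whole roots gave 12 libraries in 4 groups of 3, grouped by sample title. Per the labels' protocols, stranded mRNA libraries were made with bead capture. The authors used Bowtie 1.1.0, edgeR 3.0, FastQC, featureCounts, SAMtools 0.1.18, TopHat2 2.0.11 and the build TAIR10, per the submitters' processing notes. The sources used here do not give the strand setting or the handling of reads with several matches. The authors deposited RPKM values for 33602 rows. They also deposited 3 tables that hold, per the file headers, edgeR p-values and FDR values, log2 fold changes, likelihood-ratio scores and mean log2 CPM. The deposited table of WT against bpc is a comparison with vehicle: its log2 fold changes differed from the limma ones by a median of 0.0351 with vehicle and 0.124 with BA.

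RPKM are not counts, so tests used limma 3.58.1 in R 4.3.3 on log2(RPKM + 0.5) of the 20776 genes at 0.5 RPKM or more in 3 or more libraries, with 1 coefficient per group, an intensity trend, 8 residual degrees of freedom and Benjamini-Hochberg adjustment (threshold 0.05). Calls of all genes are the background. Read numbers were recovered from the RPKM steps (whole within 0.002 reads, or within 2e-07 of the value); they cover counting only. Python 3.11.15 computed sums and counts of 50-base words. The test was tried on simulated data with known changes.

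Members, lists, rules and alternatives were chosen with earlier results of these data known. Genes named were those called, the 3 most abundant members of each list, the ribosomal RNA list, the 5 largest residual SDs and the 5 genes closest to the most abundant named mRNA. Others with values were chosen after their values were seen, for groups that do not overlap or for the authors' calls. Between bpc vehicle and WT vehicle, libraries of the same replicate number had correlations of residuals of 0.312, 0.372 and 0.630 over all genes. WT vehicle 1 correlated with bpc vehicle 2 at 0.335, and WT vehicle 2 with bpc vehicle 1 at 0.189. WT vehicle 3 gave -0.359 and -0.517 with bpc vehicle 1 and 2. The data thus pair the libraries numbered 3, but do not pair those numbered 1 and 2 by number. Between other groups not every pair of the same number exceeded 0.1. Alternatives were other pseudocounts, filters, scalings, variance models and samples, the replicate block, the authors' tables and each library left out. The replicate block with the vehicle groups alone was added after results were seen. So was leaving out both vehicle libraries numbered 3.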

Additional observations from a re-analysis of the deposited data

How the results depend on the processing

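The median member differences, apart from the settings named next, moved by less than 1 SD between replicates (0.141 on the log2 scale) and the members followed singly kept their direction. For bpc against WT with vehicle, limma called 1 member (ATMG00690) under median-of-ratios scaling, under nuclear-sum scaling, with WT BA replicate 1 rescaled and without both vehicle libraries numbered 3, and the authors' deposited table calls 6 members. With the replicate block and the vehicle groups alone, a setting added after results were seen, 2 members were called. The block over all 12 libraries changed no count of calls (0, 0, 0, 1 and 0 in the 5 comparisons). The median with vehicle was 0.494 for the 22 members with 2 RPKM in 3 libraries. For bpc against WT with BA, 2 members were called with the 2 groups alone and without both vehicle libraries numbered 3. For BA in bpc the authors' deposited table calls 1 member. Leaving out 1 library at a time gave 0 to 2 calls for bpc against WT with BA (medians 0.126 to 0.486), 0 to 1 with vehicle (0.297 to 0.404), 0 to 1 for BA in bpc (0.023 to 0.122), 0 for BA in WT (-0.094 to 0.149) and 0 for the interaction (-0.099 to 0.203). The summed level in WT vehicle was 4563 RPKM under quantile normalization, and without the rows of the ribosomal RNA list sums were 1509 RPKM in bpc BA, 1637 in bpc vehicle, 1216 in WT BA and 1261 in WT vehicle. The cause of these shifts was not tested, except that fewer rows enter the sums without the ribosomal RNA list and the median over 22 members. No interaction can be fitted with 2 groups alone. Depth limits the 20 members with fewer than 100 reads in all.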
